A study of Mus musculus with 8 samples.

Results

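Genes of inositol phosphate and phytate metabolism were examined in mouse skin. The 43 genes were chosen by name, for their roles as inositol phosphate kinases and phosphatases, suppliers of inositol, phospholipases C and receptors of inositol trisphosphate (IP3). All 43 were found among the 21885 genes of the expression table. Of these, 38 passed the filter for testing, which asks for FPKM values of 1 or more in 4 or more libraries. FPKM counts the fragments of a gene relative to its length and to the depth of the library. The study compared 4 libraries of skin treated with MC903 alone, titled control by the submitters, with 4 of skin treated with MC903 plus phytic acid. MC903, also called calcipotriol, is an analogue of vitamin D. It causes an inflammation resembling atopic dermatitis when put on mouse skin. All 8 libraries are from MC903-treated skin, so every value is relative to MC903 skin and not to untreated skin. The labels give no strain, age, dose or time, and it is not stated if each library is from its own mouse. The p-values therefore reflect only how these samples varied, and that variation may be technical.

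Phytic acid is inositol hexaphosphate (IP6), the compound given to the second group and also a product of the pathway studied here. Cells make it from inositol that is taken up or synthesised, built into membrane lipid and released again as IP3 by phospholipase C. IP3 opens calcium channels of the endoplasmic reticulum. Kinases then add phosphates up to IP6, and further kinases build pyrophosphates on it, while phosphatases reverse each step. In epidermis, phospholipase C and calcium release take part in the calcium-driven differentiation of keratinocytes.

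Library depth recovered from the values was 31676934 to 42997271 reads, and all 4 phytic acid libraries were deeper than any with MC903 alone. MC903 replicate 3 stood apart from its group. Its summed level of 8 hair follicle markers was 3368 FPKM against 9.16, 57.6 and 10.5 in the other MC903 libraries, and 13.9 to 19.8 with phytic acid. Its 5 melanocyte markers summed to 126 FPKM against 4.09 to 5.56. Its 7 wound keratin and related markers summed to 3584 FPKM against 5647 to 8106, and the vitamin D target Cyp24a1 stood at 585 FPKM against 2008 to 2066. With phytic acid Cyp24a1 was at 34.2 to 127 FPKM (log2 fold change -4.29 ± 0.49, SE, adjusted p = 0.000623 by limma). The level of this target thus differed between the groups, and MC903 replicate 3 lay toward the phytic acid side. Without untreated skin the response to MC903 itself was not measured, and the cause of the difference was not tested. The epidermal keratin Krt5, a defining marker of skin, stood at 709 to 971 FPKM over the 8 libraries. Its partner Krt14 fell from a mean of 5275 to 1357 FPKM (adjusted p = 0.0017 by limma). The 8 basal keratinocyte markers summed to 4385 to 7942 FPKM with MC903 and 2632 to 3112 with phytic acid, with 2 called higher and 1 lower. The 8 suprabasal markers summed to 3650 to 6238 and 7928 to 10168 FPKM, with 5 called higher and 1 lower. The part of this epidermal difference in the members' values was not tested. Whether MC903 replicate 3 differs in the skin sampled or in its label cannot be told apart from these values, so results are also given without it where that changes them.

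With phytic acid, RNA of Itpk1 and Ippk was lower. They encode kinases of inositol phosphates, and the product of Ippk places the last phosphate on IP6. Itpk1 fell from a mean of 12.3 ± 2.50 FPKM (SD, n = 4) to 5.02 ± 0.812, and Ippk from 9.80 ± 2.34 to 5.13 ± 0.469. RNA of Itpkb, a kinase that phosphorylates IP3 itself, rose from 8.72 ± 2.28 to 16.7 ± 0.932. In RNA of whole skin, fewer cells of a type and less RNA per cell cannot be told apart. Of the 38 tested members, 5 were called higher and 3 lower (limma, Benjamini-Hochberg adjusted over all genes, adjusted p below 0.05). That is 21.1% of the members, against 25.8% of the 12165 genes tested, so the genes as a set were not called more often than genes at large. By direction, 14.2% of all tested genes were called higher and 11.6% lower. Without MC903 replicate 3, 8 members were called higher and 3 lower. Without MC903 replicate 1 or MC903 replicate 4, 2 were called higher, and 3 without MC903 replicate 2, with 3 lower in each case. Of all tested genes, 32.4% were called without MC903 replicate 3, and 16.2%, 18.5% and 17.4% without replicates 1, 2 and 4.

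The upstream sequences of Itpk1, Ippk and Itpkb are shown because these were the 3 members of largest change. They are the 250 bases before the transcription start in RefSeq on GRCm38.p6, the assembly that mm10 names, printed 5′ to 3′ on the strand of the gene. The regions are chr12:102704870-102705119 on the minus strand for Itpk1, chr13:49420992-49421241 on the plus strand for Ippk and chr1:180330226-180330475 on the plus strand for Itpkb. Capitals mark matches, on either strand, to the GC box GGGCGG, the AP-1 site TGANTCA or the nuclear receptor hexamer AGGTCA.
Itpk1: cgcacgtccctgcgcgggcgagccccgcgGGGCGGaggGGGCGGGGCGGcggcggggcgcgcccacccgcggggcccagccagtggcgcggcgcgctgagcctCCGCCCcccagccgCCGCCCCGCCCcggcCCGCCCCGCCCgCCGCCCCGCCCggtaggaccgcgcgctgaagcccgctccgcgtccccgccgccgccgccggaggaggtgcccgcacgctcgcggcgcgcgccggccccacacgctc
Ippk: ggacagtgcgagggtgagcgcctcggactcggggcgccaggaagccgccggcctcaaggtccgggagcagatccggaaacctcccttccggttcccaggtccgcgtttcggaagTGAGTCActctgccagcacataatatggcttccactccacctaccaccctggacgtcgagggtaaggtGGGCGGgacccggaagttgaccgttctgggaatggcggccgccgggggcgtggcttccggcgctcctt
Itpkb: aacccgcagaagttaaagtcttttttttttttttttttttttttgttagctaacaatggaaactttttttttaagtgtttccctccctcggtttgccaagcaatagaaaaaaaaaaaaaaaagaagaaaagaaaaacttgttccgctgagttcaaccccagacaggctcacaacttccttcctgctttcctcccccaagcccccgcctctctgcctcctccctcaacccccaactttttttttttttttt

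The sequence of Itpk1 was 88.4% G and C and held 10 GC box matches, some of which overlap. That of Ippk was 66.4% G and C, with 1 GC box and 1 AP-1 match. That of Itpkb was 38.4% G and C, with long runs of T and A and no match to any of the 3 motifs. The median over 32851 RefSeq promoters was 52.4% G and C. A GC box was found in 32.7% of those promoters, an AP-1 match in 6.75% and the hexamer in 14%, all within the same 250 bases. A promoter entry was matched for 39 of the 43 members, using the start nearest to that of the gene annotation. The matched start lay 43088 bases from the annotated one for Plce1, 6656 for Plcb3 and 4383 for Ppip5k1. For the others it lay at most 536 bases away. Of these 39, 29 held a GC box, 3 an AP-1 match (Ippk, Plcb3 and Inpp5a) and 3 the hexamer (Plcb3, Inpp1 and Inpp4a). These matches describe the letters only.

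The members differed widely in level. Averaged over the 8 libraries, Nudt4, a phosphatase of inositol pyrophosphates, was highest at 71.2 FPKM. Minpp1, the phosphatase that removes phosphates from IP6 in animal cells, followed at 23.5 FPKM. Ipmk, a kinase that acts on several inositol phosphates, was next at 16.6 FPKM. The lowest library of Nudt4 (55.2) lay above the highest of Minpp1 (31.5), and the lowest of Minpp1 (19.0) above the highest of Ipmk (18.8). Further down, Itpr3 and Ip6k1 reached 22.8 and 19.4 in single libraries and so overlapped Minpp1. At each later step of the order, the libraries of neighbouring genes overlapped. At the low end, 5 members did not reach the level for testing: Slc2a13, Plcb1, Plce1, Itpka and Inpp5j. Itpka and Inpp5j rested on 2 to 35 and 12 to 52 reads per library, whereas each of the other members had at least 135 reads in every library.

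**Figure D1:**
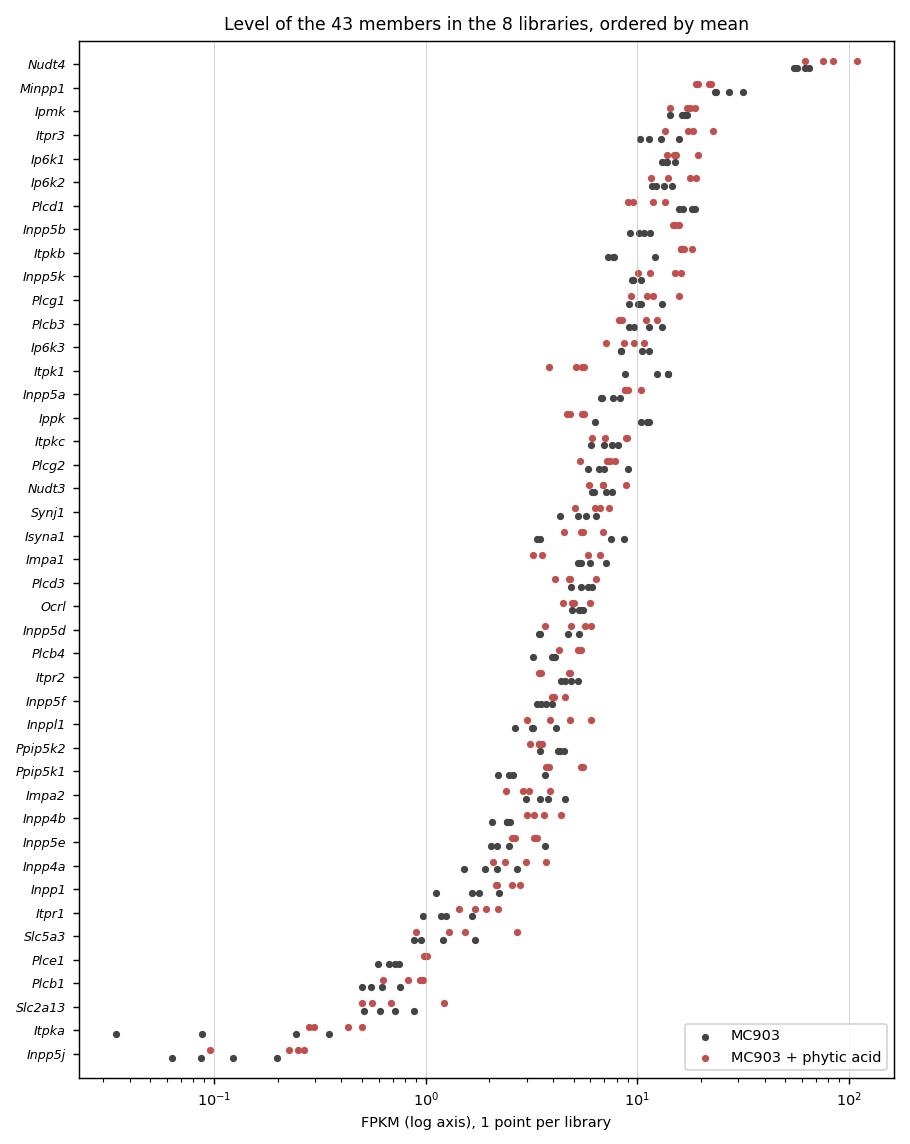
FPKM of the 43 members on a log axis, ordered by their mean over 8 libraries, with 1 point per library (MC903 in grey, MC903 plus phytic acid in red). Nudt4 stands above the rest without overlap, Minpp1 (lowest library 19.0) overlaps Itpr3 (highest 22.8) and Ip6k1 (highest 19.4) but not its neighbour Ipmk, and Itpka and Inpp5j lie below 1 FPKM in every library.

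Inositol supply was described by 5 genes, and none of the 4 tested was called in either direction, against 25.8% of all tested genes. Isyna1, which makes inositol phosphate from glucose phosphate, stood at 5.74 ± 2.73 FPKM (SD, n = 4) with MC903 and 5.59 ± 0.984 with phytic acid. Its MC903 libraries were split, at 3.46 and 3.37 in replicates 1 and 2 and 8.63 and 7.51 in replicates 3 and 4. Impa1, an inositol monophosphatase, stood at 5.94 ± 0.853 and 4.81 ± 1.68, and Impa2, its paralogue, at 3.70 ± 0.663 and 3.05 ± 0.607. The sodium-coupled inositol transporter gene Slc5a3 was low, at 1.19 ± 0.375 and 1.60 ± 0.774. The proton-coupled transporter gene Slc2a13 was lower still, at 0.680 ± 0.158 and 0.742 ± 0.332, and was not tested. Intervals (95%) of the log2 fold change were -0.74 to 0.14 for Impa1 and -0.24 to 0.68 for Slc5a3, so differences of that size could not be told from 0 here.

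Among the phospholipases C, which release IP3 from membrane lipid, Plcd1 was lower and Plcb4 higher. That is 33.3% of the 6 tested, against 25.8% of all tested genes. Plcd1, an isozyme known for its part in hair and epidermis, stood at 15.8, 16.5, 18.1 and 18.7 FPKM across MC903 replicates 1 to 4. With phytic acid it stood at 11.8, 13.5, 9.03 and 9.59 FPKM. The groups did not overlap, and the log2 fold change was -0.62 ± 0.13 (SE), with an adjusted p of 0.00802 by limma. MC903 replicate 3, with its hair follicle RNA, lay within the range of the other MC903 libraries for Plcd1.

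Plcb4, a G protein-coupled isozyme, stood at 3.97, 3.204, 4.05 and 4.09 FPKM with MC903 and 5.43, 5.28, 4.25 and 5.32 with phytic acid. Its groups did not overlap, but phytic acid replicate 3 lay close to the MC903 libraries. The log2 fold change of 0.33 ± 0.11 (SE) passed narrowly (adjusted p = 0.0492 by limma). Leaving out MC903 replicate 1 (0.0978), 2 (0.120) or 4 (0.0794) ended the call, as did leaving out phytic acid replicate 1 (0.118), 2 (0.101) or 4 (0.113). Testing all genes with no filter also ended it (0.0749), as did rescaling the values to TPM (0.0916).

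The other 4 tested phospholipases C were not called. Plcb3 stood at 10.8 ± 1.80 FPKM (SD, n = 4) and 9.99 ± 1.999, Plcd3 at 5.56 ± 0.538 and 5.01 ± 0.967. Plcg1, which growth factor receptors activate, stood at 10.7 ± 1.69 and 12.02 ± 2.74. Plcg2, an isozyme prominent in leukocytes, stood at 7.11 ± 1.37 and 6.96 ± 1.10. In the same libraries 5 of 6 leukocyte markers were called higher. The sum of the 6 went from a range of 77.3 to 124 FPKM to 128 to 267. The part of leukocytes in the Plcg2 values was not tested. Plce1 narrowly missed the level for testing, at 0.671, 0.599, 0.716 and 0.747 FPKM with MC903 and 1.0002, 1.0149, 0.987 and 0.995 with phytic acid. Its groups did not overlap, and when all genes were tested with no filter it was called higher (adjusted p = 0.0167 by limma).

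None of the 3 IP3 receptor genes was called with all libraries, against 25.8% of all tested genes. Itpr3, the most abundant of them in these skin libraries, stood at 10.4, 11.4, 15.8 and 12.9 FPKM with MC903 and 18.3, 22.8, 17.4 and 13.5 with phytic acid. MC903 replicate 3 lay above phytic acid replicate 4, so the groups overlapped. The log2 fold change was 0.48 ± 0.17 (SE), with an adjusted p of 0.0611 by limma, 0.0230 once MC903 replicate 3 was left out and 0.0298 once phytic acid replicate 4 was. Itpr1 stood at 1.18, 0.973, 1.66 and 1.25 FPKM with MC903 and 2.19, 1.94, 1.44 and 1.72 with phytic acid. Again MC903 replicate 3 was the highest of its group and lay within the range of the other (log2 fold change 0.32 ± 0.13, adjusted p = 0.0995 by limma, 0.0343 without that library). Itpr2 stood at 4.88, 4.55, 4.38 and 5.27 FPKM with MC903 and 4.79, 4.73, 3.42 and 3.51 with phytic acid. Its log2 fold change was -0.18 ± 0.12 (adjusted p = 0.293 by limma).

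Among the kinases that lead from IP3 to IP6, 1 of 5 tested was called higher and 2 lower. Over all tested genes, 14.2% were called higher and 11.6% lower. Itpkb, which adds a phosphate to IP3 and is known for its role in lymphocyte signalling, stood at 7.31, 7.72, 12.1 and 7.74 FPKM with MC903. With phytic acid it stood at 18.05, 16.03, 16.1 and 16.7 FPKM. Every phytic acid library was above every MC903 library, and MC903 replicate 3 was far above its own group. The log2 fold change was 0.89 ± 0.14 (SE), with an adjusted p of 0.00271 by limma, and 1.04 without MC903 replicate 3. T cell markers were also higher in these libraries: 3 of 4 tested were called, and the sum over 5 markers went from 3.47 to 8.46 FPKM to 10.9 to 28.5. Of 5 B cell markers none reached the level for testing, the sums were 0.175 to 0.581 and 0.637 to 1.08 FPKM, and Cd79b, Ms4a1 and Pax5 were at 0 in some libraries. All 6 tested Langerhans and dendritic cell markers were called higher, with sums of 135 to 343 FPKM with MC903 and 637 to 1352 with phytic acid. Of 5 tested neutrophil markers 0 were higher and 2 lower, in a list that shares S100a8 and S100a9 with the wound list. Of 6 macrophage markers 2 were higher and 0 lower, and of 6 mast cell markers 0 were called. The part of any of these cells in the Itpkb values was not tested. Its relative Itpkc stood at 7.17 ± 0.888 FPKM (SD, n = 4) and 7.75 ± 1.39 and was not called (log2 fold change 0.09 ± 0.13, SE).

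Itpk1, a kinase of inositol tris- and tetrakisphosphates, stood at 12.4, 14.0, 8.74 and 14.0 FPKM across MC903 replicates 1 to 4. With phytic acid it stood at 5.46, 5.16, 3.84 and 5.63 FPKM, below every MC903 library. Its log2 fold change of -1.13 ± 0.16 (SE) was the largest of the 38 tested members (adjusted p = 0.00158 by limma), and it was -1.27 without MC903 replicate 3. The gene spans 102568582 to 102704930 on chromosome 12 in the GENCODE annotation of GRCm38, and its values are sums over exons.

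Ippk, which makes IP6 from inositol pentakisphosphate, stood at 11.1, 10.4, 6.34 and 11.3 FPKM with MC903 and 5.46, 4.66, 4.79 and 5.60 with phytic acid. Here too MC903 replicate 3 was the lowest of its group and lay nearest to the phytic acid libraries. The log2 fold change was -0.79 ± 0.16 (SE), with an adjusted p of 0.00843 by limma, and -0.97 without that library. The gene spans 49421249 to 49464573 on chromosome 13, and 6.5% of its exon bases are shared with Cenpp on the opposite strand. Wound keratinocyte markers were lower in the same libraries, with 5 of 7 called and sums of 3584 to 8106 FPKM with MC903 and 772 to 1372 with phytic acid. Their part in the values of Itpk1 and Ippk was not tested.

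Ipmk, which stands between IP3 and the later steps, differed little, at 16.3, 16.8, 14.3 and 17.1 FPKM with MC903 and 17.7, 14.3, 17.1 and 18.8 with phytic acid. The 95% interval of its log2 fold change was -0.17 to 0.30. Itpka, a brain and cytoskeletal isozyme, was at 0.179 ± 0.145 FPKM (SD, n = 4) and 0.378 ± 0.107.

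**Figure D2:**
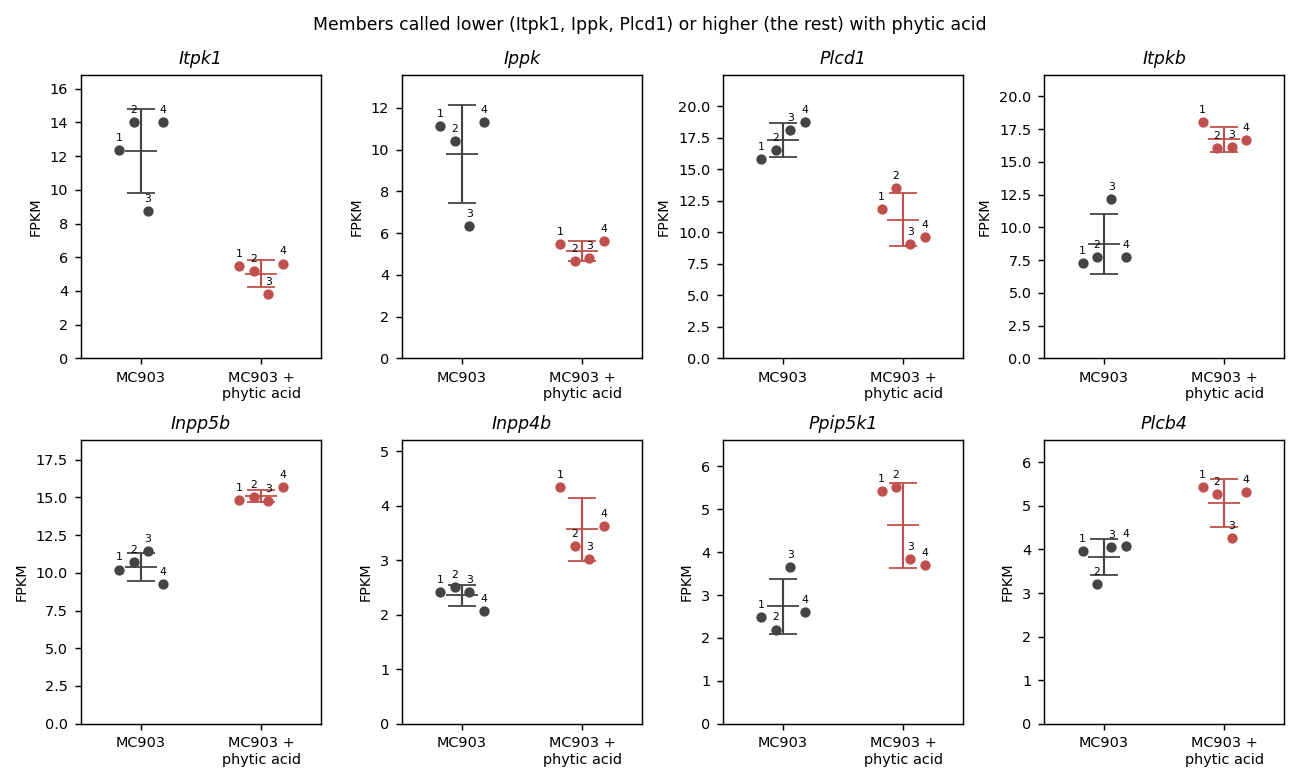
FPKM of the 8 called members in each library, with replicate numbers above the points and the group mean ± SD (n = 4) as bars. The groups do not overlap in any panel, and MC903 replicate 3 is the MC903 library nearest to the phytic acid mean for Itpkb, Itpk1, Ippk, Ppip5k1 and Inpp5b. How often that holds over all called genes was not counted.

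MC903 replicate 3 was the MC903 library nearest to the phytic acid mean in 5 of the 8 called members (Itpkb, Itpk1, Ippk, Ppip5k1 and Inpp5b). Each of the other MC903 libraries was nearest in 1 of them. The same count was not made over all called genes, so it is not read as particular to these members.

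Of the kinases that build pyrophosphates on IP6, 1 of 5 was called (20%, against 25.8% of all tested genes), and it rose. Ppip5k1 stood at 2.49, 2.20, 3.65 and 2.60 FPKM with MC903 and 5.43, 5.52, 3.84 and 3.70 with phytic acid. The groups did not overlap, though MC903 replicate 3 and phytic acid replicates 3 and 4 lay close together. The log2 fold change was 0.59 ± 0.16 (SE), with an adjusted p of 0.0237 by limma. Leaving out MC903 replicate 1 (0.0674), 2 (0.0659) or 4 (0.0593) ended the call, and so did leaving out phytic acid replicate 1 (0.0652) or 2 (0.0636). Its paralogue Ppip5k2 stood at 4.12 ± 0.459 FPKM (SD, n = 4) and 3.40 ± 0.190, with a log2 fold change of -0.22 ± 0.10 (SE) that did not pass (adjusted p = 0.134 by limma). It passed with median-of-ratios scaling (0.0316) and quantile normalization (0.0174).

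The IP6 kinase genes Ip6k1, Ip6k2 and Ip6k3 were not called. Ip6k1 stood at 13.6, 13.1, 15.1 and 13.9 FPKM with MC903 and 14.9, 19.4, 15.3 and 13.8 with phytic acid, so that phytic acid replicates 2 and 3 lay above the MC903 range and replicate 2 stood farthest from it. Ip6k2 stood at 13.0 ± 1.28 FPKM (SD, n = 4) and 15.6 ± 3.40. Ip6k3, an isozyme known from skeletal muscle and brain, stood at 9.67 ± 1.52 and 9.07 ± 1.57. In the same libraries 8 of 10 skeletal muscle markers were called higher, and their sum went from 3287 to 3805 FPKM to 7190 to 8368. None of the muscle markers was at 0 in any library. The 95% interval of the log2 fold change of Ip6k3 was -0.40 to 0.23, and the median of the muscle markers was 1.10. The part of muscle in the Ip6k3 values was not tested.

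Enzymes that take phosphate off IP6 and its pyrophosphates were not called. Minpp1 stood at 23.4, 27.0, 31.5 and 23.5 FPKM with MC903 and 19.4, 21.8, 22.3 and 19.0 with phytic acid. All 4 phytic acid libraries were below all 4 MC903 libraries, but the log2 fold change of -0.33 ± 0.11 (SE) missed the threshold (adjusted p = 0.0580 by limma). It passed with median-of-ratios scaling (0.0398). In the annotation, 23.8% of the exon bases of Minpp1 are shared with another record on the same strand. Nudt4 stood at 59.7 ± 4.44 FPKM (SD, n = 4) and 82.7 ± 20.1, with phytic acid replicate 3 highest at 109.6. Its log2 fold change of 0.44 ± 0.16 did not pass (adjusted p = 0.0717 by limma), but did without phytic acid replicate 2 (0.0268). It also passed with TPM scaling (0.0462), quantile normalization (0.0464) and library weights (0.0153). Nudt3, a close relative, stood at 6.79 ± 0.725 and 7.12 ± 1.23.

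Of the 3 phosphatases that act on the 1 and 4 positions, 1 was called, Inpp4b, which was higher (33.3%, against 25.8% of all tested genes). Inpp4b, a phosphatase of inositol lipids, stood at 2.42, 2.51, 2.42 and 2.07 FPKM with MC903 and 4.34, 3.26, 3.03 and 3.64 with phytic acid. The groups did not overlap, and the log2 fold change was 0.44 ± 0.11 (SE), with an adjusted p of 0.0193 by limma. Leaving out MC903 replicate 1 (0.0503) or 4 (0.0591) narrowly ended the call, as did leaving out phytic acid replicate 4 (0.0501). Inpp4a stood at 2.07 ± 0.492 FPKM (SD, n = 4) and 2.79 ± 0.722, and Inpp1, which acts on soluble inositol phosphates, at 1.70 ± 0.452 and 2.42 ± 0.306. Neither was called with all libraries, and Inpp1 passed without MC903 replicate 3 (adjusted p = 0.0288 by limma).

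Among 10 members of the 5-phosphatase family and its relatives, 9 were tested and 1, Inpp5b, was called. That is 11.1%, against 25.8% of all tested genes. Inpp5b, which acts on inositol phosphates and lipids, stood at 10.2, 10.7, 11.5 and 9.25 FPKM with MC903 and 14.8, 15.0, 14.8 and 15.7 with phytic acid. Both groups were tight and well separated, with a log2 fold change of 0.50 ± 0.09 (SE) and an adjusted p of 0.00379 by limma. Ocrl, its closest relative and the gene of Lowe syndrome, stood at 5.28 ± 0.284 FPKM (SD, n = 4) and 5.09 ± 0.635 and was not called. Inpp5a, which inactivates IP3, stood at 7.38 ± 0.757 with MC903 and 9.21 ± 0.782 with phytic acid, and Inpp5f at 3.63 ± 0.250 and 4.13 ± 0.277. Neither overlapped between groups, Inpp5f only by a narrow margin, and neither passed (adjusted p = 0.0603 and 0.255 by limma). Inpp5a passed with library weights (0.0429) and among genes whose FPKM averaged 5 or more (0.0486).

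The remaining 5-phosphatase genes were not called either. Inpp5k stood at 9.74 ± 0.453 FPKM (SD, n = 4) with MC903 and 13.2 ± 2.86 with phytic acid, where replicates 2 and 3 (16.01 and 15.1) stood above replicates 1 and 4 (10.04 and 11.5). It passed without phytic acid replicate 1 (adjusted p = 0.0295 by limma). Inpp5d (SHIP1), the leukocyte member, stood at 4.22 ± 0.917 and 5.05 ± 1.05 FPKM, with a 95% interval of -0.16 to 0.58 for its log2 fold change. The median log2 fold change of the 6 leukocyte markers was 0.95, and the part of leukocytes in the Inpp5d values was not tested. Inppl1 (SHIP2) stood at 3.30 ± 0.627 and 4.44 ± 1.31, Inpp5e, a ciliary enzyme, at 2.58 ± 0.736 and 2.95 ± 0.407, and Synj1 (synaptojanin) at 5.41 ± 0.865 and 6.35 ± 0.970. Inpp5j was below the level for testing, at 0.118 ± 0.0590 and 0.210 ± 0.0777 FPKM.

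**Figure D3:**
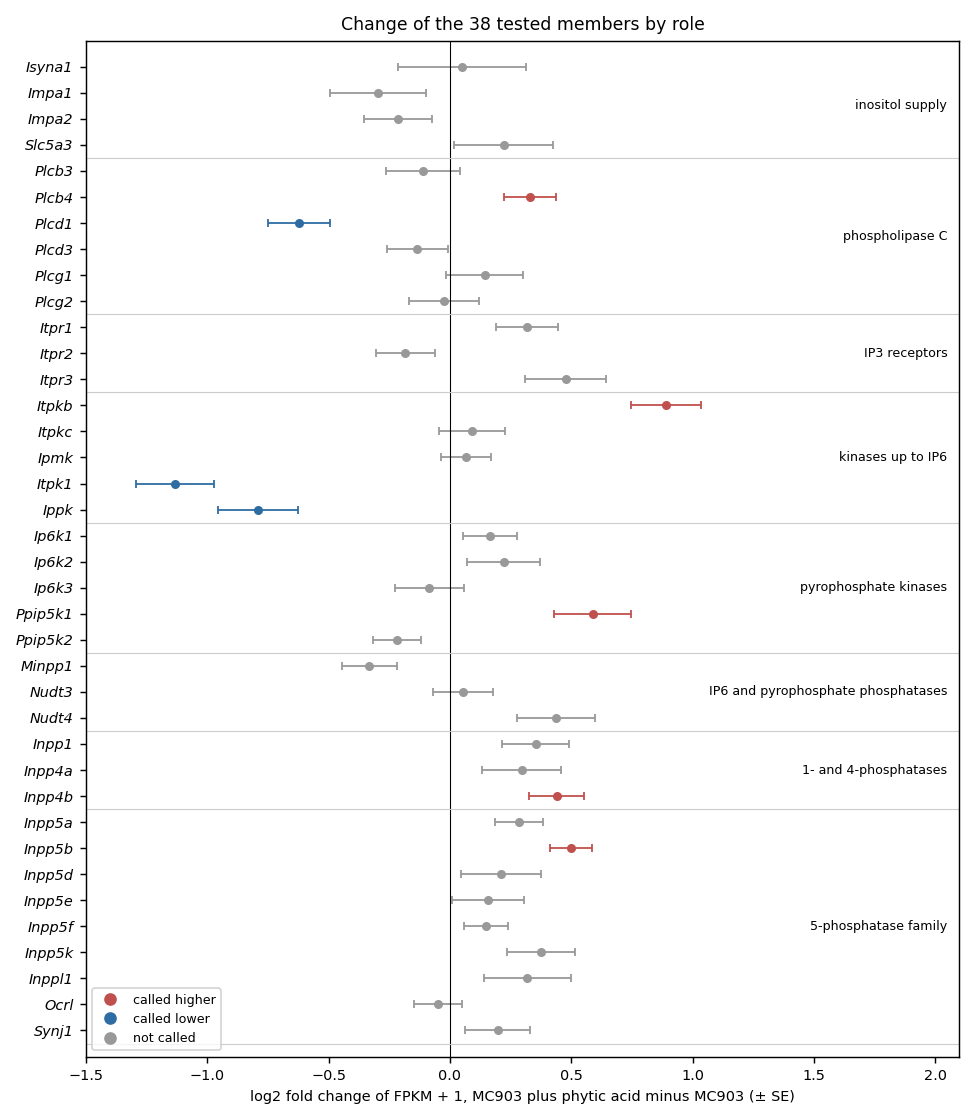
Log2 fold change of FPKM + 1 (MC903 plus phytic acid minus MC903, bars ± SE) of the 38 tested members, grouped by role. Itpk1, Ippk and Plcd1 lie to the left as called lower, Itpkb, Inpp5b, Inpp4b, Ppip5k1 and Plcb4 to the right as called higher, and 30 are not called.

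Over the 38 tested members the median log2 fold change was 0.15, against 0.05 over all genes tested. Above 0 lay 25 of the 38 members and 6844 of the 12165 genes tested. Whether the members differ from other genes in this was not tested. The groups did not overlap in 11 of the 38 members, against 3322 of the 12165 genes (27.3%). Those 11 were the 8 called members with Minpp1, Inpp5a and Inpp5f. Of the 8 calls, 5 (Itpk1, Ippk, Plcd1, Itpkb and Inpp5b) held in all 19 other settings and leave-outs.

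Related members were compared within each library, since a ratio of 2 genes in the same library does not depend on its scaling. There were 12 such pairs, chosen by relatedness after the values had been seen, and each was tested by an exact two-sided permutation test of the log2 ratio of FPKM. With 4 libraries against 4, the smallest p this test can give is 0.0286. The ratio did not overlap between groups in 5 pairs, each with p = 0.0286 by the exact permutation test and 0.0686 adjusted over the 12 pairs. None of the pairs passed after adjustment. At this smallest p, a pair can pass only if most of the 12 reach it, so this outcome decides little. Ppip5k1, Inpp5b, Plcd1 and Plcb4 were already called in these data, so ratios that hold them are not separate support. How often ratios of other gene pairs separate was not computed. Ppip5k1 over Ppip5k2 had a mean log2 ratio of -0.61 ± 0.21 (SD, n = 4) with MC903 and 0.42 ± 0.30 with phytic acid, so that Ppip5k1 was the lower of the pair in every MC903 library and the higher in every phytic acid library. In the same order, Inpp5b over Ocrl stood at 0.98 ± 0.19 and 1.57 ± 0.20, and Itpr2 over Itpr3 at -1.39 ± 0.32 and -2.13 ± 0.22. Plcd1 over Plcd3 stood at 1.64 ± 0.24 and 1.13 ± 0.17, and Plcb3 over Plcb4 at 1.49 ± 0.21 and 0.96 ± 0.22. Itpkb over Itpkc overlapped, because MC903 replicate 3 (1.01) lay above phytic acid replicates 2 and 3 (both 0.85). Its means were 0.26 ± 0.51 and 1.13 ± 0.34, with an exact permutation p of 0.0857 (0.171 adjusted).

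**Figure D4:**
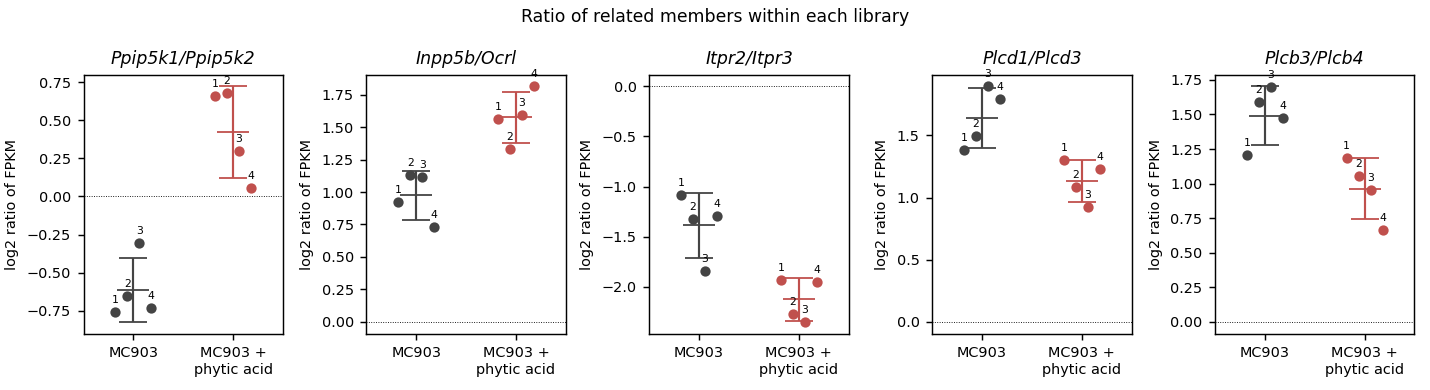
Log2 ratio of FPKM of related members within each library, with replicate numbers, and group mean ± SD (n = 4), for the 5 pairs whose groups did not overlap. Ppip5k1/Ppip5k2 lies below 0 in all MC903 libraries and above 0 in all phytic acid libraries. The exact permutation p of each pair was 0.0286, the smallest this test can give, which did not pass after adjustment over 12 pairs (0.0686).

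Other genes around the pathway were counted in 3 lists. Of 13 tested genes of the inositol phosphate group outside the 43, 0 were called higher and 1 lower (7.69%, against 25.8% of all genes). The gene called lower was Nudt11, a relative of Nudt3 and Nudt4, which fell from 1.90 ± 0.372 FPKM (SD, n = 4) to 1.15 ± 0.229. Leaving out MC903 replicate 1 (adjusted p = 0.103 by limma) or 4 (0.101) ended the call, as did leaving out phytic acid replicate 1 (0.0547), 3 (0.0787) or 4 (0.0786). Nudt11 has a close copy in Nudt10, so its value is uncertain. Without phytic acid replicate 3, 1 gene of this list was higher and 0 lower, while 22.1% of all tested genes were called.

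Genes of the phosphatidylinositol cycle make and phosphorylate the lipid that phospholipase C cuts. Of 40 tested, 4 were called higher and 0 lower (10%, against 25.8% of all genes). Without MC903 replicate 3, 5 were higher and 2 lower. With MC903 replicate 1, 2 or 4 left out, or phytic acid replicate 2, 2 were higher. Of all tested genes, 32.4% were called without MC903 replicate 3 and 16.2 to 20.5% without those other libraries. Pik3cd, the leukocyte catalytic subunit of phosphoinositide 3-kinase, rose from 2.19 ± 0.261 FPKM (SD, n = 4) to 4.28 ± 1.07. Leukocyte markers rose as well, as given above, and their part in the Pik3cd values was not tested. Pip4k2a, a lipid kinase, rose from 13.6 ± 1.84 to 21.2 ± 3.68. Both were called in every setting in which they were tested, and Pik3cd was too low to be tested among genes whose FPKM averaged 5 or more. The regulatory subunit genes Pik3r1 (adjusted p = 0.0252 by limma) and Pik3r2 (0.0412) were higher with all libraries, and reached 0.0702 and 0.112 without MC903 replicate 1.

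The arm of diacylglycerol and calcium signalling was counted together with genes that act before phospholipase C, such as G protein subunits. In this list, 5 of 23 tested genes were called higher and 4 lower. That is 39.1%, against 25.8% of all genes, with a median log2 fold change of 0.07 against 0.05. Stim1, the calcium sensor of the endoplasmic reticulum, rose from 9.61 ± 1.22 FPKM (SD, n = 4) to 14.4 ± 1.76 (adjusted p = 0.00975 by limma). Orai2, a channel subunit that Stim1 opens, fell from 3.997 ± 0.362 to 2.09 ± 0.667 (adjusted p = 0.0122 by limma). Atp2a2, the calcium pump gene of Darier disease, fell from 62.9 ± 8.97 to 44.4 ± 3.24. Gna14, a G protein subunit that activates phospholipase C, rose from 1.61 ± 0.491 to 3.11 ± 0.183. These 4 were called without each library in turn.

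The calls of 4 other genes of this arm were lost without some libraries. Prkcd (protein kinase C delta) and Orai1 were called higher, and Prkch and Gna15 lower. Without MC903 replicate 1 their adjusted p by limma were 0.0601, 0.0802, 0.112 and 0.0774. Counts for this arm were 2 higher and 2 lower when MC903 replicate 1, 2 or 4 was left out, or phytic acid replicate 2. Leaving out phytic acid replicate 1 gave 3 and 2. Leaving out replicate 3 of that group gave 7 and 2, and leaving out its replicate 4 gave 4 and 2. Over all tested genes, 16.2 to 22.1% were called when 1 of these libraries was left out.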

How the data were processed

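RNA of mouse skin from 4 MC903 and 4 MC903 plus phytic acid libraries was measured by sequencing. The authors deposited 1 table of FPKM values per gene. Per the submitters' processing notes, cutadapt, HISAT2, TopHat2 and DESeq were used with mm10. The tool behind the FPKM was not given in the sources used here, and neither was strandedness. Per the labels' protocols, RNA was extracted from skin and libraries were made with a SMARTER kit. From the table, 51 rows without a gene name (at most 0.024% of a library's sum) were left out, and for 21 repeated names the row of highest mean was kept. FPKM times exon length gave whole reads (within 0.05 of a read) for 97.4% of genes with 1 annotation record and a value. Of recovered values from 1 to 10, 71.3 to 74.7% were even. Both mates of a pair may therefore have been counted, and recovered reads are not taken as independent molecules.

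Groups were compared with limma 3.58.1 in R 4.3.3 on log2(FPKM + 1), for genes that reached an FPKM of 1 in 4 or more libraries, with a mean-variance trend and Benjamini-Hochberg adjustment over all genes tested; a call is an adjusted p under 0.05. Fold changes on this scale understate changes of low genes. The procedure was tested on simulated data. The members and lists were chosen with earlier results of these data known. Every library's value is given for called members and for Minpp1, Itpk1, Ippk, Ipmk, Ip6k1 and the IP3 receptor genes, and at most 4 called genes per direction of each pathway list are named, by smallest p. Alternatives were other pseudocounts (0.1, 0.01), filters, scalings, library weights, no trend, a replicate block and leaving out each library. A voom fit on the recovered reads and the ratios of related members were chosen after seeing the data.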

Additional observations from a re-analysis of the deposited data

Results flagged for a closer look

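The lowest and highest library of each group was compared with the spread of its group for the 43 members, 86 groups of 4 libraries in all. In 6 groups the gap to the nearest library took a larger part of the whole range than Dixon's critical value allows, and chance alone gives about 1 in 20 groups. Itpkb stood at 12.1 FPKM in MC903 replicate 3, far above the other MC903 libraries, and Ippk at 6.34 FPKM in the same library, far below them. Plcb4 was low in 1 library of each group, at 3.204 FPKM in MC903 replicate 2 and 4.25 FPKM in phytic acid replicate 3. Inpp5f was high in phytic acid replicate 2, at 4.54 FPKM. Inpp5k was high in MC903 replicate 1, at 10.4 FPKM.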

How the results depend on the processing

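The log2 fold changes of 6 members that were not called, all near 0, changed sign under some alternatives. Isyna1 (0.05) was -0.0195 with quantile normalization and ranged from -0.13 to 0.25 when single libraries were left out, falling below 0 once MC903 replicate 1, MC903 replicate 2 or the first phytic acid replicate was left out. Plcg2 (-0.02) was 0.0004 with TPM scaling, 0.0186 with library weights and -0.0990 to 0.0837 without single libraries, above 0 without MC903 replicate 4 or phytic acid replicate 3. Itpkc (0.09) was -0.0299 with library weights. Ip6k3 (-0.09) ranged from -0.1664 to 0.0141 and Nudt3 (0.05) from -0.0422 to 0.1273, each changing sign without phytic acid replicate 1. Ocrl (-0.05) ranged from -0.1171 to 0.0003, the latter without phytic acid replicate 4. The other tested members and the named pathway genes kept their sign. Of the 12 ratios of related members, 3 with small differences changed sign when single libraries were left out. From the difference with all libraries to the highest without 1 library, Ip6k1 over Ip6k2 went from -0.06 to 0.03. Impa1 over Impa2 went from -0.08 to 0.16, and Inpp5d over Inppl1 from -0.14 to 0.04. Leaving out some other libraries moved each of them further below 0. None of the 3 had passed its test. The 5 members called higher became 10 with library weights, 3 among genes whose FPKM averaged 5 or more, and 2 with the replicate block, and ranged from 2 to 8 when single libraries were left out. With library weights, Itpr1, Itpr3, Nudt4, Inpp1 and Inpp5a joined those called higher. The 3 called lower became 5 with median-of-ratios scaling and stayed at 3 without any single library. Over all genes, 3134 calls became 4796 with library weights and 2046 with the replicate block, and ranged from 1952 to 3891 without single libraries. The cause was not tested. No pairing by replicate number was seen. Same-numbered libraries correlated at -0.29 to 0.23 in their deviations from the group means, and 1 of 4 numbers correlated best with its own. With so few libraries, these correlations cannot exclude a batch shared by number. With the block, Inpp4b (adjusted p = 0.0706 by limma), Ppip5k1 (0.0751) and Plcb4 (0.138) were not called. The voom fit on recovered reads called 5 members higher and 3 lower, the same 8 genes. Members with few reads, such as Itpka (2 to 35), allow no comparison at this depth.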
